A study of Mus musculus with 6 samples.

Results

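Transcripts of the interleukin-6 pathway were followed in regenerating mouse liver, from the cytokine through its receptors and kinases to STAT3 and the inhibitors of the SOCS family. The 10 genes are Il6, Il6ra, Il6st, Osmr, Jak1, Jak2, Stat3, Socs2, Socs3 and Cish, of 17097 genes measured. They were chosen by name, through probe sets annotated to 1 gene only, and where a gene had several, the brightest on average over the arrays stands for it. All 10 were found, on 22 probe sets, and the others served as a check. Liver RNA was measured on 6 one-channel Affymetrix arrays, 3 from C57Bl/6 mice that lack Klf6 in hepatocytes by a cell-specific knockout (labelled DeltaKlf6) and 3 from wildtype C57Bl/6 mice, the controls. Every animal had 70% of its liver removed (partial hepatectomy), and the remaining liver was taken 12 h later. Each array is 1 animal, out of 6 per group in the overall study. The labels used here give no age and no name of the Cre line, and no liver without surgery was analysed here, so values describe differences between genotypes after resection and not the response to resection. All values are log2 expression values, so that a difference of 1 is a doubling of signal.

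Interleukin-6 binds the receptor chain encoded by Il6ra, and the pair recruits the signal transducer gp130, encoded by Il6st, whose bound JAK kinases phosphorylate STAT3. STAT3 enters the nucleus and induces, among others, acute phase genes and Socs3, whose product binds gp130 and JAK and ends the signal. Socs2 and Cish encode related inhibitors that are induced mainly by STAT5 downstream of the growth hormone receptor. After partial hepatectomy, interleukin-6 from Kupffer cells, the resident macrophages of liver, is known as a priming signal for hepatocytes.

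Klf6, the targeted gene, was not lower by mean in the libraries labelled DeltaKlf6, and its 3 probe sets differed by 0.02, 0.52 and 0.13. In the library labelled DeltaKlf6 1 all 3 stood above every wildtype array, 1.82 to 2.13 above their wildtype means. DeltaKlf6 2 lay inside the wildtype range on 2 probe sets and below it on 1, and DeltaKlf6 3 lay inside it on 1 and below it on 2. The probe sets may lie outside the part of Klf6 that was deleted, in which case they check nothing. Nor can these values settle whether each library is labelled rightly. Directions are therefore between libraries as labelled, and DeltaKlf6 1, 2 and 3 stand for the libraries so labelled. In the library labelled DeltaKlf6 3, the upper quartile of all values was 5.08, lower than in any other array (5.50 to 5.63). There the Gapdh control gave 4.83 more signal at its 3' end than at its 5' end. This excess was 3.47 in DeltaKlf6 1, 3.45 in DeltaKlf6 2 and between 4.06 and 4.43 in wildtype. For the actin control it was 5.05 in DeltaKlf6 3, inside the wildtype range of 4.86 to 5.39, and at most 4.22 in DeltaKlf6 1 and 2. Arrays correlated across genes at 0.946 to 0.964 within DeltaKlf6 and at 0.982 to 0.983 within wildtype. Pairs of a DeltaKlf6 and a wildtype array correlated at 0.964 to 0.981. The DeltaKlf6 arrays were thus no more alike among themselves than to wildtype arrays.

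Markers of 8 liver cell types were read beside the pathway, and 0 of the 59 passed adjustment by limma. The mean of the 10 hepatocyte markers lay at 0.18, 0.30 and -0.16 from its wildtype mean in DeltaKlf6 1, 2 and 3, beside -0.07 to 0.06 in wildtype arrays. Among them Alb was between 12.52 and 13.33 in all 6 arrays, Trf, named after its values were seen, was 11.41 in DeltaKlf6 3 and 12.14 to 12.85 elsewhere, and Pck1 was low throughout (2.41 to 3.72). Of 5 listed erythroid markers 3 were measured. Their mean stood above all wildtype arrays in each DeltaKlf6 array, at 0.17, 0.25 and 0.21, beside -0.03 to 0.03 in wildtype. Taken singly, each of the 3 overlapped between the groups. The mean of the 8 lymphocyte markers stood below all wildtype arrays, at -0.12, -0.12 and -0.16, beside -0.08 to 0.08 in wildtype. By mean, however, 4 of these 8 were higher and 4 lower. The list averaged 3.29 to 3.53 per array, near the array medians of 3.30 to 3.45. By mean, 8 of 11 Kupffer cell and macrophage markers were higher, with list means of 0.06, 0.76 and -0.06, beside -0.21 to 0.16 in wildtype. The neutrophil list (2 of 6 higher) lay at -0.08, -0.50 and 0.12, beside -0.30 to 0.17 in wildtype. The sinusoidal endothelium list (3 of 9 higher) lay at -0.19, 0.04 and -0.26, beside -0.12 to 0.06 in wildtype. The stellate cell and cholangiocyte lists overlapped between the groups. Groups did not overlap for 4 of the 59 markers on the lower side, against 5.91% of all genes, and for 1 on the higher side, against 3.41%. The lower ones were the endothelial receptor gene Kdr (-0.87, SE 0.30), the T cell genes Cd3g (-0.46, SE 0.22) and Cd3d (-0.40, SE 0.20) and the neutrophil gene Camp (-0.36, SE 0.20), and the higher one was the B cell gene Cd79b (0.29, SE 0.22). Cd3g (2.56 to 3.42), Cd3d (3.08 to 3.70), Camp (3.31 to 3.93) and Cd79b (3.70 to 4.44) were dim. They lay within the range of 13 genes typical of brain, muscle, eye and testis (1.92 to 5.19). Detection was not assessed, so whether these 4 rise above background signal is not known. The part of these features in the differences between genotypes was not tested, and in whole liver fewer cells of a type and less RNA per cell cannot be told apart.

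Among the 10 genes, the clearest separations between the genotypes were at Cish, an inhibitor of cytokine receptors, and at Il6ra, the interleukin-6 binding chain. Cish was 2.96-fold and Il6ra 1.77-fold lower by mean in the libraries labelled DeltaKlf6, and in both genes all 3 DeltaKlf6 values lay under all 3 wildtype values. Neither passed the test over all genes. Socs2 and Osmr, the receptor chain for oncostatin M, differed widely among DeltaKlf6 livers, and Socs3 stood high in 1 of them. Il6st, Jak2 and Stat3 differed by at most 0.28 between the group means.

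By limma 0 of the 10 genes had an adjusted p under 0.05, as had 0 of all 17097 genes (0%). At an unadjusted p under 0.05, 2 of the 10 genes were lower (Cish and Il6ra), against 2.48% of all genes, and 0 were higher, against 1.21% of all genes. Groups did not overlap for the same 2 genes on the lower side, against 5.91% of all genes, and for 0 on the higher side, against 3.41%. The median log2 difference, DeltaKlf6 minus wildtype, was -0.13 over the 10 genes and -0.01 over all genes, with 4 of the 10 higher and 6 lower by mean. With 3 arrays against 3, the smallest p that an exact permutation test can give is 0.1.

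**Figure D1:**
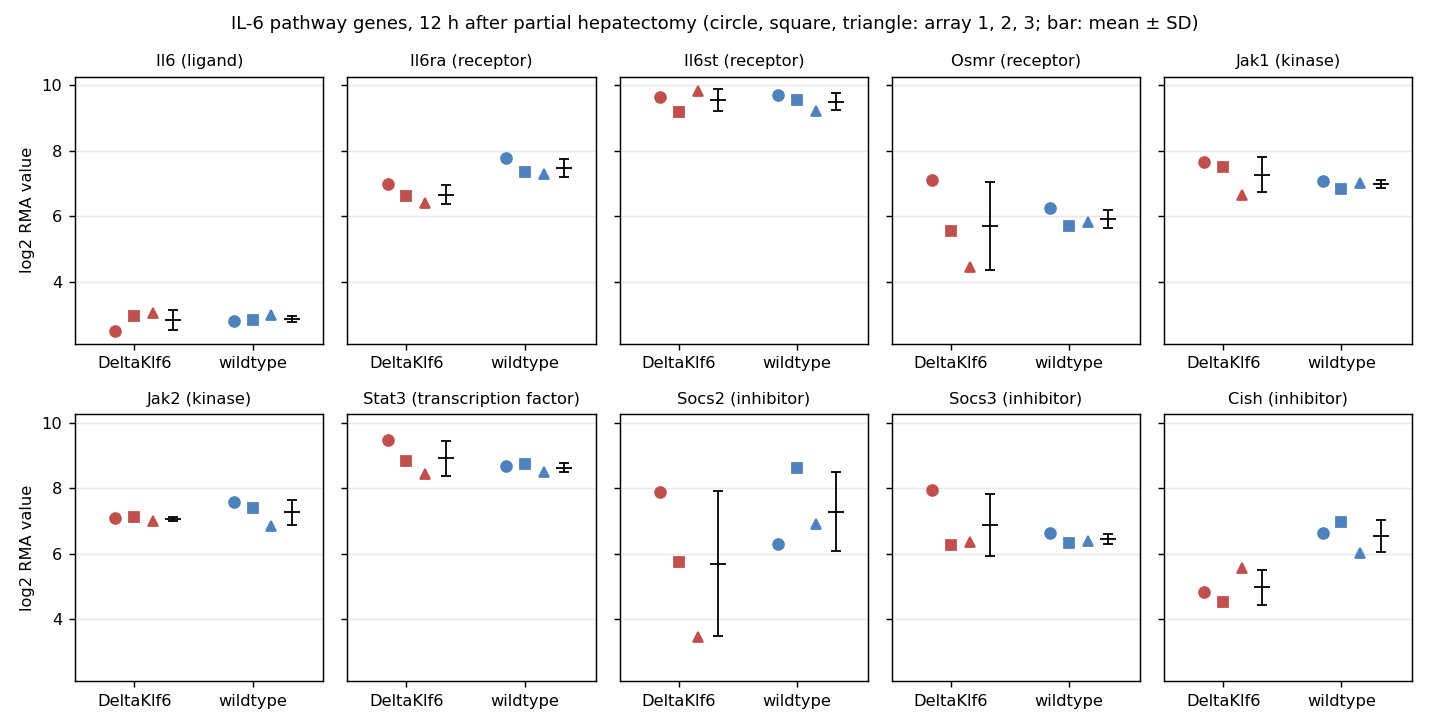
Log2 RMA values of the 10 genes in each array, DeltaKlf6 on the left and wildtype on the right of each panel; circle, square and triangle mark arrays 1, 2 and 3 of a group, and the bar is the mean with its SD. All DeltaKlf6 points lie under all wildtype points for Il6ra and Cish, and Socs2 has the widest spread.

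Cish encodes an SH2-domain protein that binds activated cytokine receptors and limits STAT5 signalling. Its promoter is shown because the gap between its groups was the widest among the 10 genes, and that of Socs3 is shown as the classical feedback gene of STAT3. The letters are the first 270 bases of each RefSeq promoter window (GRCm38.p6), which starts 250 bases before the gene's annotated start. Capitals mark matches to TTCNNNGAA, the core letters that STAT proteins bind.
Cish, chr9:107296409-107296678, plus strand: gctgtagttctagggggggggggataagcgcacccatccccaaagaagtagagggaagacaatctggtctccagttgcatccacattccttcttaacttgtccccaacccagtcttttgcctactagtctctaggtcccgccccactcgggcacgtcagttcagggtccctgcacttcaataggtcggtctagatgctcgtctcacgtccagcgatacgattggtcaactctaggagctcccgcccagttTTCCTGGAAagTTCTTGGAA
Socs3, chr11:117969347-117969616, minus strand: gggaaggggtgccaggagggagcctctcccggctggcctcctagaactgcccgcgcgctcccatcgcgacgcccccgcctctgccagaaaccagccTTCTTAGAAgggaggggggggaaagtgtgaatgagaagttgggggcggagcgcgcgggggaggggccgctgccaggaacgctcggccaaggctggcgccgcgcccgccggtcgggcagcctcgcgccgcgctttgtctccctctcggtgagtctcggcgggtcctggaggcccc
The Cish window held 2 matches, TTCCTGGAA at bases 251 to 259 and TTCTTGGAA at bases 262 to 270, and the Socs3 window held 1, TTCTTAGAA at bases 97 to 105. The Cish matches thus lie at or after the gene's annotated start, and the Socs3 match lies before it. TTCNNNGAA reads the same on both strands. Of 32851 promoter windows of 300 bases, 8.30% held at least 1 match and 0.457% held at least 2. Windows were found for 9 of the 10 genes, and the other 7 of these had no match. A match describes letters in this window only, and binding was not measured.

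Cish read 4.82, 4.51 and 5.57 in DeltaKlf6 1, 2 and 3, against 6.62, 6.97 and 6.00 in wildtype 1, 2 and 3. Every DeltaKlf6 value was under every wildtype value, with a gap of 0.44 between the highest DeltaKlf6 and the lowest wildtype array. The group means were 4.97 ± 0.54 in DeltaKlf6 and 6.53 ± 0.49 in wildtype (SD, n = 3 each). The log2 difference was -1.57 (SE 0.35, 95% interval -2.38 to -0.75), which corresponds to 0.192 to 0.596 of the wildtype level. Its adjusted p was 0.992 by limma and its unadjusted limma p was 0.00229, which 0.140% of all genes undercut. The exact two-sided permutation test gave 0.1, the smallest value possible here. Cish was lower in the library in which Klf6 was high as well as in the other 2, at -1.71, -2.02 and -0.96 from the wildtype mean in DeltaKlf6 1, 2 and 3. Cish had 1 probe set on the array, so no other probe set checks it.

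Il6ra encodes the receptor chain that gives a cell its response to interleukin-6. It read 6.97, 6.61 and 6.39 in DeltaKlf6 livers, against 7.79, 7.36 and 7.28 in wildtype. The groups did not overlap, with a gap of 0.31. The means were 6.66 ± 0.29 in DeltaKlf6 and 7.48 ± 0.27 in wildtype (SD, n = 3 each), a log2 difference of -0.82 (SE 0.25, 95% interval -1.40 to -0.25). This corresponds to 0.379 to 0.843 of the wildtype level. The adjusted p was 0.992 by limma, the unadjusted limma p was 0.0111 and the exact permutation p was 0.1. The other Il6ra probe set was dim, at 3.81, 3.02 and 3.58 in DeltaKlf6, against 3.50, 3.57 and 3.51 in wildtype, where the groups overlapped (difference -0.05). With the mean of both probe sets the Il6ra difference was -0.44, and its unadjusted p was no longer under 0.05.

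Il6st encodes gp130, the signal-transducing chain shared by the interleukin-6 family of cytokines. It was at 9.65, 9.18 and 9.83 in DeltaKlf6, against 9.72, 9.57 and 9.22 in wildtype. The groups overlapped throughout, and the log2 difference was 0.05 (SE 0.25, 95% interval -0.54 to 0.64, adjusted p = 0.997 by limma). Its sign turned under several settings, among them leaving out DeltaKlf6 3 (-0.09). The Il6ra and Il6st intervals overlap, and whether the 2 differences differ from each other was not tested.

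Osmr encodes the chain that pairs with gp130 to form an oncostatin M receptor. It was at 7.12, 5.55 and 4.44 in DeltaKlf6 1, 2 and 3, against 6.24, 5.71 and 5.81 in wildtype. The highest and the lowest of the 6 values were both in libraries labelled DeltaKlf6, DeltaKlf6 1 and DeltaKlf6 3. The SD was 1.35 in DeltaKlf6 and 0.28 in wildtype, and 1.94% of all genes had a larger SD in DeltaKlf6. The difference of means was -0.21 (SE 0.59, 95% interval -1.59 to 1.16, adjusted p = 0.995 by limma). It was 0.42 without DeltaKlf6 3 and -0.92 without DeltaKlf6 1. The other 2 Osmr probe sets lay between 1.90 and 3.43 and differed by 0.20 and 0.21.

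Il6 itself, the ligand, was at 2.47, 2.95 and 3.03 in DeltaKlf6, against 2.80, 2.82 and 2.97 in wildtype. All 6 values lay under the array medians of 3.30 to 3.45. They lay within the range of 13 genes typical of brain, muscle, eye and testis (1.92 to 5.19, median 2.91). Detection was not assessed, so these values leave little room for a difference in Il6 to show. The log2 difference was -0.05 (SE 0.23, 95% interval -0.57 to 0.48, adjusted p = 0.997 by limma), and without DeltaKlf6 1 it was 0.12.

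Jak1 encodes the kinase that gp130 chiefly depends on. Its brightest probe set was at 7.64, 7.49 and 6.65 in DeltaKlf6 1, 2 and 3, against 7.07, 6.85 and 7.01 in wildtype. DeltaKlf6 1 and 2 lay above all wildtype arrays and DeltaKlf6 3 below them. The other 2 probe sets showed the same order of the DeltaKlf6 libraries, with a wider spread. One was at 7.30, 7.16 and 4.15 in DeltaKlf6, against 6.06, 6.31 and 5.63 in wildtype. The other was at 5.52, 5.26 and 2.54 in DeltaKlf6, against 3.41, 3.55 and 4.55 in wildtype. Each of the 3 Jak1 probe sets was thus high in DeltaKlf6 1 and 2 and low in DeltaKlf6 3, the library with the low upper quartile. The log2 difference of the brightest was 0.29 (SE 0.29, 95% interval -0.39 to 0.96, adjusted p = 0.992 by limma). It was 0.59 without DeltaKlf6 3, and 1 of the 10 genes, Jak1, was then higher at an unadjusted p under 0.05, against 5.35% of all genes. Without DeltaKlf6 1 or 2 it was 0.10 and 0.17.

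Jak2 encodes the kinase bound to the growth hormone receptor, which gp130 also uses. It was at 7.07, 7.11 and 6.99 in DeltaKlf6, against 7.58, 7.39 and 6.84 in wildtype. The DeltaKlf6 values lay close together (SD 0.06, against 0.38 in wildtype) and inside the wildtype range. The difference was -0.21 (SE 0.25, 95% interval -0.78 to 0.36, adjusted p = 0.992 by limma), with the dimmer probe set at 0.06. Without wildtype 3 it was -0.43 and without wildtype 1 it was -0.06.

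Stat3 encodes the transcription factor on which these receptors converge. It was at 9.49, 8.83 and 8.42 in DeltaKlf6 1, 2 and 3, against 8.68, 8.74 and 8.48 in wildtype. DeltaKlf6 1 stood 0.86 above the wildtype mean, DeltaKlf6 2 stood 0.19 above it and DeltaKlf6 3 stood at -0.21. The difference was 0.28 (SE 0.29, 95% interval -0.40 to 0.96, adjusted p = 0.992 by limma), and without DeltaKlf6 1 it was -0.01. The arrays measure Stat3 transcript, and phosphorylated STAT3 protein was not measured.

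**Figure D2:**
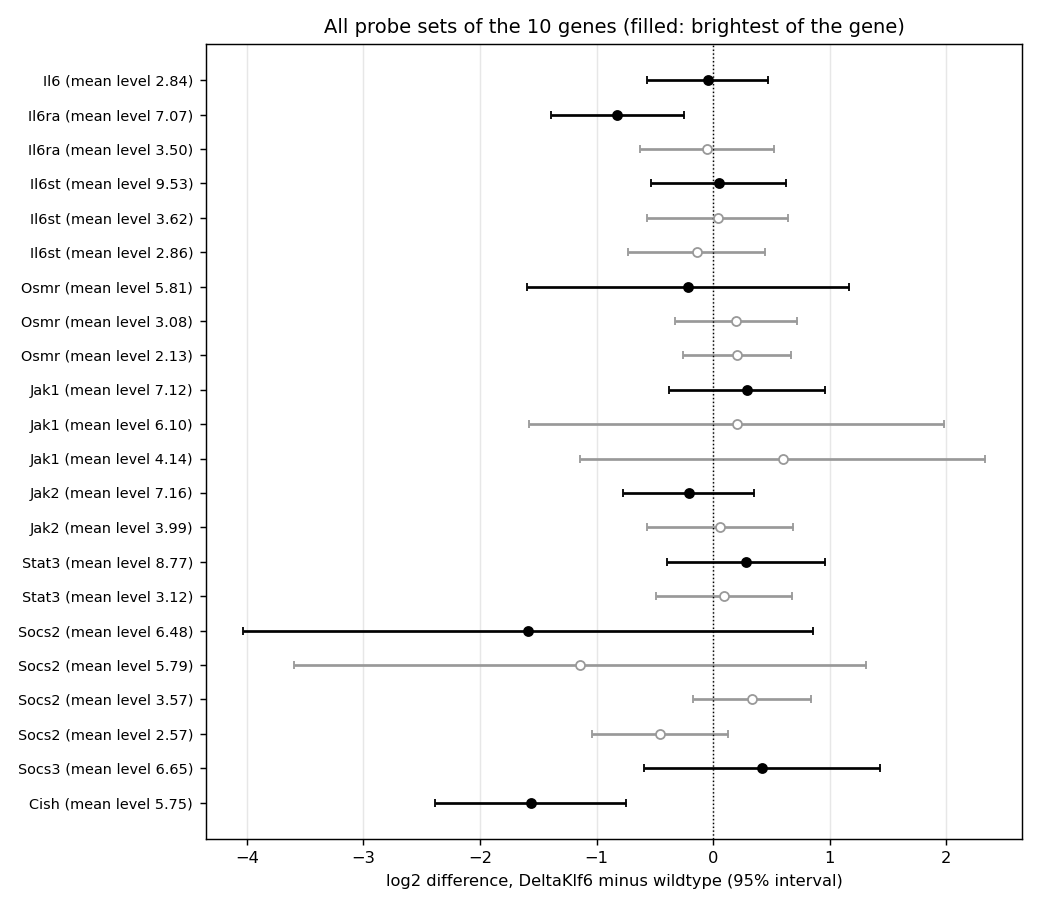
Log2 difference, DeltaKlf6 minus wildtype, with its 95% interval from limma for each of the 22 probe sets of the 10 genes, fitted over all single-gene probe sets; filled points are the brightest probe set of a gene and the mean level is in brackets. The intervals of the Cish and the brighter Il6ra probe set lie below 0, and those of the 2 brighter Socs2 probe sets are the widest.

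Socs3 encodes the inhibitor that STAT3 induces and that shuts off gp130. It was at 7.96, 6.26 and 6.36 in DeltaKlf6 1, 2 and 3, against 6.62, 6.32 and 6.39 in wildtype. DeltaKlf6 1 stood 1.51 above the wildtype mean, and the other 2 DeltaKlf6 libraries lay at -0.18 and -0.08, DeltaKlf6 3 inside the wildtype range and DeltaKlf6 2 just under it. The difference of means was 0.42 (SE 0.44, 95% interval -0.59 to 1.43, adjusted p = 0.992 by limma), and without DeltaKlf6 1, the library in which Klf6 was also high, it was -0.13. Socs3 had 1 probe set.

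Among 5310 other genes at or above the median level and the median SD, the pattern over the 6 arrays was most like that of Socs3 for Bcl2l1, which encodes the survival protein BCL-XL, with a Pearson r of 0.995. Arrdc4 followed at 0.993, Atf3, a stress-induced transcription factor, at 0.990, Tiparp, a target of the aryl hydrocarbon receptor, at 0.990, and Jade2 at 0.984. In DeltaKlf6 1 these 5 genes stood 1.41, 2.08, 2.47, 2.94 and 0.96 above their wildtype means in the same order. Over the 5 arrays without DeltaKlf6 1, r was 0.885, 0.873, 0.708, 0.688 and 0.935 in that order. Over the 4 arrays left after also removing wildtype 1, the other array farthest from the Socs3 median, r was 0.098 for Bcl2l1, 0.920 for Arrdc4, -0.696 for Atf3, 0.692 for Tiparp and 0.855 for Jade2. In those 4 arrays Socs3 lay between 6.26 and 6.39. So few arrays over so narrow a span cannot show, for any of the 5 genes, whether the likeness holds or is lost. All genes of an array share its RNA and normalization, and these correlations describe 6 arrays only.

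**Figure D3:**
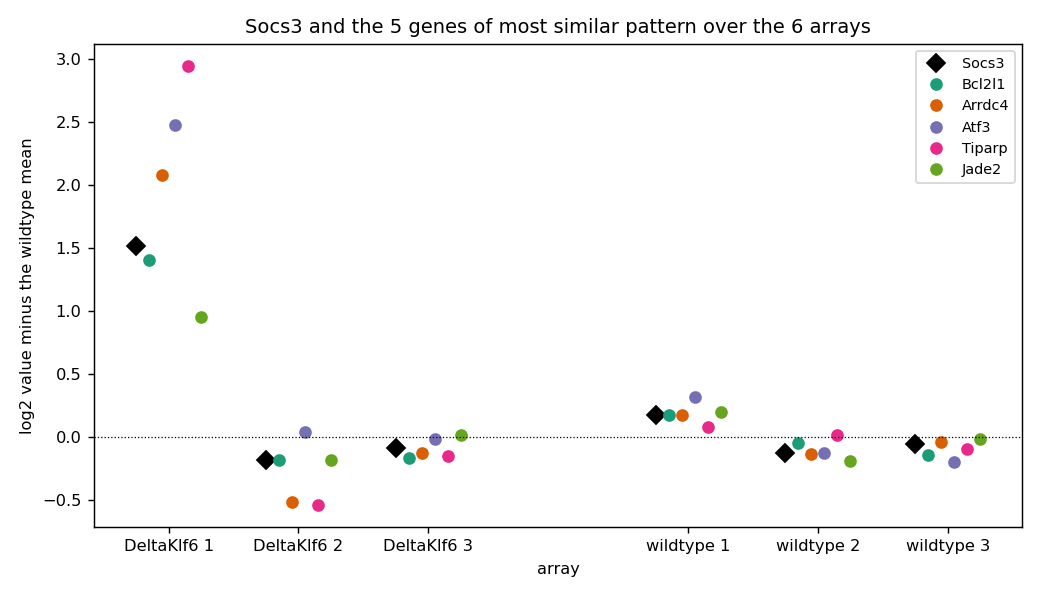
Log2 values of Socs3 (black diamonds) and of the 5 genes of most similar pattern in each array, minus the gene's wildtype mean, DeltaKlf6 on the left and wildtype on the right. In DeltaKlf6 1 the 6 genes stand 0.96 to 2.94 above their wildtype means, and in the other 5 arrays they lie between -0.54 and 0.32.

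Socs2 encodes an inhibitor of growth hormone signalling, and it varied more than nearly all genes in both genotypes. It was at 7.87, 5.74 and 3.45 in DeltaKlf6 1, 2 and 3, against 6.30, 8.63 and 6.90 in wildtype 1, 2 and 3. DeltaKlf6 2 and 3 lay below all wildtype arrays, while DeltaKlf6 1 lay between wildtype 3 and wildtype 2. The SD was 2.21 in DeltaKlf6 and 1.21 in wildtype, and only 0.135% and 0.146% of all genes had a larger SD in these groups. The next brightest Socs2 probe set gave 7.29, 4.78 and 3.58 in DeltaKlf6, against 4.98, 8.23 and 5.87 in wildtype, with the same order of the libraries within each group. The 2 dim probe sets, at 2.19 to 4.02, differed by 0.33 and -0.46. By mean Socs2 differed by -1.59, a size like that of Cish, but with an SE of 1.05 and a 95% interval of -4.02 to 0.84 (adjusted p = 0.992 by limma, exact permutation p = 0.4). Without DeltaKlf6 1 the difference was -2.68, without DeltaKlf6 3 it was -0.47, and without wildtype 2 it was -0.91.

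Without DeltaKlf6 1, the library in which Klf6 stood above wildtype on all its probe sets, 4 of the 10 genes were lower at an unadjusted limma p under 0.05 (Cish, Il6ra, Socs2 and Osmr), against 2.58% of all genes, and 0 were higher, against 1.51%. The groups of 2 and 3 arrays did not overlap for the same 4, against 10.8% of all genes on the lower side, and for 0 on the higher side, against 7.31%. Socs2 and Osmr had their highest DeltaKlf6 values in the library left out, so removing it lowers their means. They reached this p in no other setting. The DeltaKlf6 group left was DeltaKlf6 2 and DeltaKlf6 3, the latter with the low upper quartile. Without DeltaKlf6 3 there were 2 lower genes, Cish and Il6ra, against 3.69% of all genes, and 1 higher gene, Jak1, against 5.35%. The groups then did not overlap for Cish and Il6ra on the lower side, against 12.8% of all genes, and for Jak1 and Stat3 on the higher side, against 12.6%. In neither case did any of the 10 pass adjustment over all genes by limma.

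**Figure D4:**
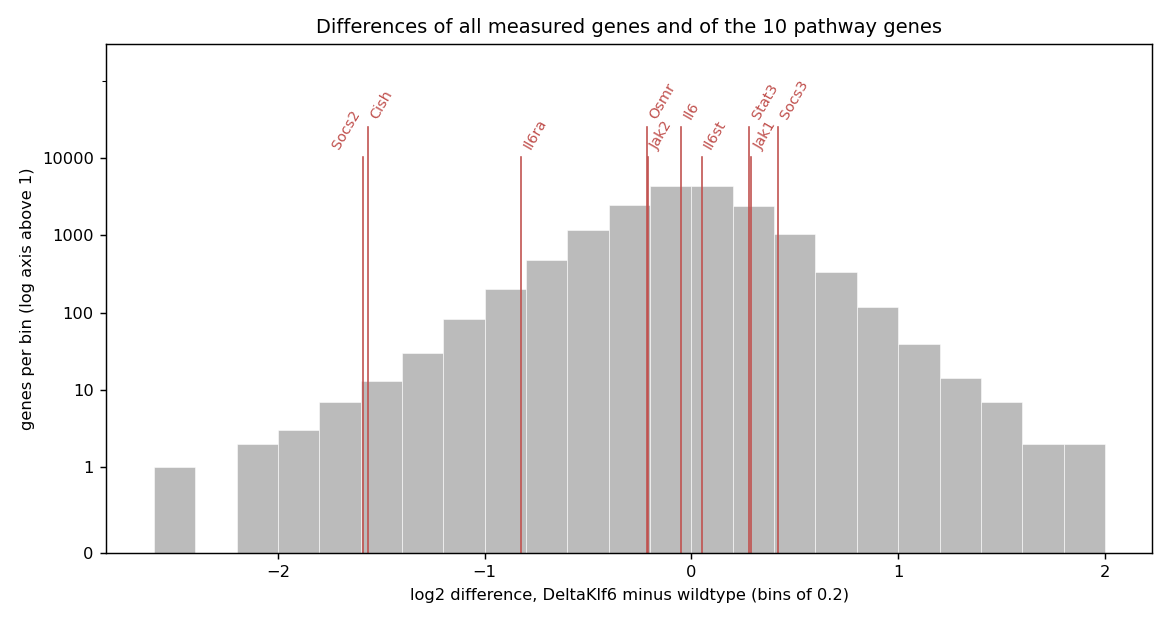
Number of genes by log2 difference, DeltaKlf6 minus wildtype, in bins of 0.2 (log axis above 1), with red lines at the 10 pathway genes. Socs2 (-1.59), Cish (-1.57) and Il6ra (-0.82) lie on the lower side, and the other 7 lie between -0.21 and 0.42.

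Other genes of JAK and STAT signalling were read from 6 lists chosen by function. None of their 59 genes passed adjustment over all genes (0%, limma). Groups did not overlap for 2 of the 59 on the lower side (Ctf1 and Socs4), against 5.91% of all genes, and for 2 on the higher side (Il4ra and Junb), against 3.41%. Of 5 measured ligands of this family and related STAT3 cytokines, 3 were higher and 2 lower by mean (median difference 0.00). Ctf1, which encodes cardiotrophin-1, a gp130 ligand, was at 4.22, 6.18 and 5.76 in DeltaKlf6, against 6.49, 6.21 and 6.77 in wildtype. Its groups did not overlap, by a margin of 0.04 between DeltaKlf6 2 and wildtype 2, and the difference was -1.11 (SE 0.48, adjusted p = 0.992 by limma). Il10 (0.42), Clcf1 (0.20) and Il11 (-0.15) differed by less than their SEs of 0.51, 0.25 and 0.24. Their mean levels were 2.82, 3.22 and 2.96, and the median level of the 5 ligands was 3.04. These levels lay within the range of 13 genes typical of brain, muscle, eye and testis (1.92 to 5.19). Detection was not assessed, so whether ligands this dim rise above background signal is not known.

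Of 11 other receptors 6 were higher and 5 lower by mean (median 0.08). Il4ra, the interleukin-4 receptor chain, was at 3.90, 3.34 and 4.21 in DeltaKlf6, against 3.24, 3.18 and 2.87 in wildtype, and the groups did not overlap (difference 0.72, SE 0.27, adjusted p = 0.992 by limma). These levels were near the array medians and within the range of 13 genes typical of brain, muscle, eye and testis (1.92 to 5.19). Whether Il4ra rises above background signal is not known, as detection was not assessed. Lepr, the leptin receptor, was at 7.10, 3.25 and 6.57 in DeltaKlf6, against 8.03, 7.02 and 8.01 in wildtype. DeltaKlf6 2 stood far below the others, and the difference was -2.05 (SE 0.91, adjusted p = 0.992 by limma). Ghr, the growth hormone receptor, was at 10.98, 10.84 and 10.47 in DeltaKlf6, against 9.71, 10.60 and 10.51 in wildtype (0.49, SE 0.30), and Ifnar1 differed by -0.40 (SE 0.27).

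Of 7 other JAK and STAT genes 3 were higher and 4 lower by mean (median -0.16), and the groups overlapped for all 7. Stat5b, the main STAT of growth hormone signalling in liver, was at 5.51, 6.37 and 5.03 in DeltaKlf6, against 6.24, 6.26 and 5.94 in wildtype (-0.51, SE 0.34). Stat4 (0.38), Jak3 (-0.43) and Stat2 (0.30) had SEs of 0.29, 0.39 and 0.30. Their mean levels of 2.53, 3.48 and 4.38 also lay within the range of the 13 genes typical of other tissues (1.92 to 5.19). Of 13 other inhibitors 5 were higher and 8 lower by mean (median -0.14). Socs4, another SOCS gene, was at 6.08, 6.37 and 5.49 in DeltaKlf6, against 6.60, 6.72 and 6.63 in wildtype. Its groups did not overlap (-0.67, SE 0.26, adjusted p = 0.992 by limma). Socs5 (-0.46, SE 0.28), Pias2 (0.35, SE 0.23) and Ptpn11, which encodes the phosphatase SHP2 (-0.32, SE 0.25), overlapped between the groups.

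Genes listed as induced by STAT3 were near their wildtype levels in most cases. Of 18 measured 9 were higher and 9 lower by mean, with a median of 0.01. The serum amyloid genes Saa1 and Saa2, named after their values were seen, differed by -0.05 and -0.04 (95% intervals -0.52 to 0.42 and -0.48 to 0.40). Lcn2, encoding lipocalin-2, differed by 0.21 (SE 0.22). Junb, an AP-1 gene, was at 6.87, 5.92 and 6.00 in DeltaKlf6, against 5.07, 5.37 and 5.78 in wildtype, without overlap of the groups (0.86, SE 0.32, adjusted p = 0.992 by limma). A2m, alpha-2-macroglobulin, was at 8.01, 6.95 and 9.72 in DeltaKlf6, against 10.59, 9.31 and 10.08 in wildtype, where the groups overlapped (-1.77, SE 0.66, adjusted p = 0.992 by limma). Whether STAT3 induces A2m in mouse liver was not tested. Myc differed by 0.33 (SE 0.38). Several of these genes are near the top of the array's range, where a difference has less room to show.

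Of 5 measured genes listed as regulated by growth hormone and STAT5, 2 were higher and 3 lower by mean (median -0.34), and the groups overlapped for all 5. The list was not split by whether the hormone raises or lowers a gene, so these counts give no direction for the pathway. Igf1, the main growth hormone target of liver, was at 10.52, 10.70 and 10.08 in DeltaKlf6, against 9.91, 10.60 and 10.35 in wildtype (0.14, SE 0.27). Onecut1 (-0.81, SE 0.58), Pim3 (-0.43, SE 0.42) and Bcl6, which encodes a repressor (0.56, SE 0.79), spread widely within groups.

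**Figure D5:**
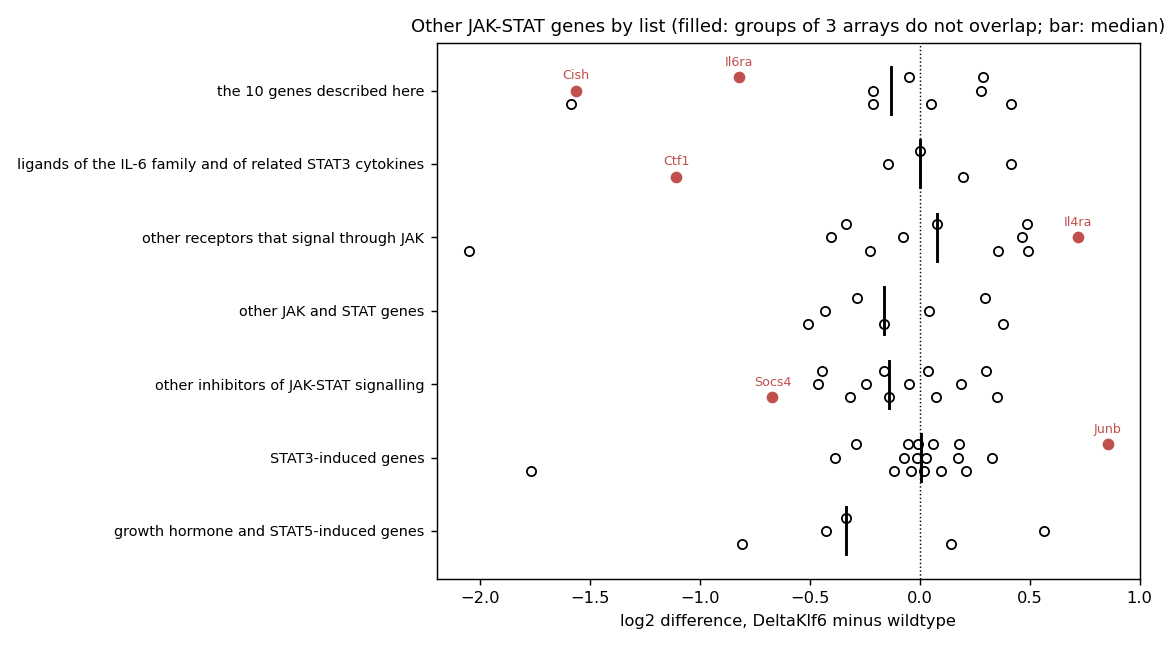
Log2 difference, DeltaKlf6 minus wildtype, of each gene in the 6 lists of other JAK and STAT signalling genes and of the 10 genes in the top row; filled red points are genes whose groups of 3 arrays do not overlap, and bars are list medians. Cish and Il6ra in the top row, Ctf1, Il4ra, Socs4 and Junb are filled.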

How the data were processed

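The authors deposited log2 expression values made with RMA (background correction, quantile normalization and median-polish summary) using Affymetrix Expression Console, version 1.2.1 (per the submitters' processing notes). Log base 2 was inferred from the highest value, 13.9, under the limit of 16 of a 16-bit scanner. RNA was TRIzol-extracted, column-purified and labelled with a 3' IVT kit, per the labels' protocols. The sources used here name no genome build or probe annotation. Of 45141 probe sets, 28898 had 1 gene symbol in the platform annotation, 551 several and 15692 none. Symbols were checked through the Entrez number and 0 changed.

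All 17097 genes were compared in limma (version 3.58.1, R 4.3.3; lmFit, eBayes, genotype as the factor, Benjamini-Hochberg over all genes, two-sided, threshold 0.05). The number of arrays limits the precision. The members and lists were chosen with earlier results of these data known. Named were the 10 genes, Klf6, up to 4 genes per list by unadjusted p and the 5 genes most like Socs3. On simulated data for this comparison, with 17097 genes, a change of 1 on the log2 scale was called in 24% of the 50 genes given it, a change of 2 in 96% and changes of 3 and 4 in 100%, with 12 unchanged genes called. The simulation held 50 changed genes at each of these 4 sizes, and such genes ease the adjustment for all others. In the real data 0 genes passed, so these shares are not the chance of a call in these livers. Alternatives were other probe set choices, a filter on dim genes, renormalization, other variance models, array weights, a replicate block and each array left out.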

Additional observations from a re-analysis of the deposited data

How the results depend on the processing

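In all 17 alternatives 0 genes and 0 of the 10 genes passed adjustment by limma or by the unmoderated pooled-variance test. Cish and Il6ra were lower in each of the 16 alternatives run per gene, Cish between -1.87 and -1.34 with single arrays left out and Il6ra between -0.98 and -0.67. The unadjusted p stayed under 0.05 for Cish throughout, and for Il6ra except with the mean of its probe sets. The sign turned elsewhere. Il6st was -0.018 with the mean of its probe sets, -0.0082 with array weights and -0.14 on its dimmest probe set, and Osmr was 0.064 and 0.072 under the same settings and 0.21 and 0.20 on its dimmer probe sets. The dimmer Jak2 probe set gave 0.060 and a dim Socs2 probe set 0.33. With single arrays left out, the differences spanned -0.16 to 0.12 for Il6, -0.091 to 0.23 for Il6st, -0.92 to 0.42 for Osmr, 0.10 to 0.59 for Jak1, -0.43 to -0.06 for Jak2, -0.0074 to 0.53 for Stat3, -2.68 to -0.47 for Socs2 and -0.13 to 0.72 for Socs3. The cause was not tested. The count of all genes at an unadjusted p under 0.05 was 631, and 1546 without DeltaKlf6 3, 1165 without DeltaKlf6 2, 388 without wildtype 1, 379 without wildtype 3 and 331 of 8549 without dim genes, where fewer genes were tested. Deviations of same-numbered arrays correlated at -0.005, 0.262 and 0.084, so the numbers were not taken to pair the animals. With the replicate number as a block the count was 703, Cish was -1.57, Il6ra was -0.82, and 0 genes passed adjustment.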
